A study of Mus musculus with 4 samples.

Results

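The D-type cyclins and the CDK inhibitors, the genes that set the G1 phase of the cell cycle going or hold it back, were followed in C3H10T1/2 cells. The set was chosen by gene name and holds 10 of the 54532 genes of the count table. It comprises the 3 D-type cyclins (Ccnd1, Ccnd2, Ccnd3), the 3 Cip/Kip inhibitors (Cdkn1a, Cdkn1b, Cdkn1c) and the 4 INK4 inhibitors (Cdkn2a, Cdkn2b, Cdkn2c, Cdkn2d). Of these, 9 were among the 13233 genes that reached a mean of 1 CPM (counts scaled to library size), and Cdkn1c was not. C3H10T1/2 is a mouse mesenchymal stem cell (MSC) line of C3H embryo origin, so all libraries come from 1 line in culture. To learn how DNMT1, the enzyme that copies DNA methylation after replication, acts before and during early osteoblast (OB) differentiation, poly(A) RNA was sequenced in 4 groups of 1 library each. In control, cells received a control siRNA and no induction. In siDNMT1 they received siRNA against DNMT1 and no induction. OB stands for control siRNA followed by 3 days of OB induction, and siDNMT1_OB for DNMT1 siRNA followed by the same induction. Transfection lasted 48 h in all groups, and the induction medium held L-ascorbic acid at 50 µM, β-glycerophosphate at 10 mM and dexamethasone. With 1 library per group no difference has a replicate check, no p-value is given for a comparison of libraries, and the 95% intervals below, computed exactly from the counts by the Clopper-Pearson method, cover counting error only.

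D-type cyclins are made in response to growth factors. They bind CDK4 or CDK6, and the kinase complex phosphorylates the retinoblastoma protein, which releases E2F factors and opens the way into S phase. INK4 proteins bind CDK4 and CDK6 themselves and keep the cyclin out, whereas Cip/Kip proteins bind cyclin-CDK complexes more broadly and block CDK2. Leaving the cell cycle accompanies the maturation of osteoblasts.

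Total counts lay between 22296046 in OB and 27367792 in control. Dnmt1, the check of the labels, had 265 CPM in control and 132 in siDNMT1, against 85.4 in OB and 93.1 in siDNMT1_OB. It was lower by a log2 fold change of −1.01 in siDNMT1 than in control but stood at 0.13 (0.04 to 0.21) for siDNMT1_OB against OB. The level of the targeted gene therefore does not show the depletion that the label names. With the direction of this pair turned, it would not show one like the −1.01 of the uninduced pair either. The reason was not tested. For this, "the library labelled siDNMT1_OB" is written throughout, and each direction drawn from it carries this limit. The mesenchymal markers fixed for the check summed to between 26766 and 33478 CPM, with 10 of 11 past the expression filter. Single markers moved within that sum, such as Pdgfra, at 2.47 on the log2 scale for OB against control, and Ly6a, at −1.03 for siDNMT1 against control. Of 6 osteoblast markers, Alpl and Bglap were at or under 3 counts in every library, while Runx2 and Spp1 were expressed. Neither was higher in OB than in control, with log2 fold changes of −0.06 for Runx2 and −1.55 for Spp1, and Spp1 stood at −1.41 in siDNMT1 against control. Ibsp and Sp7 did not reach the expression filter, with 1 and 5 counts in control and 3 and 1 in siDNMT1, against 6 and 8 in OB and 17 and 4 in the library labelled siDNMT1_OB. Of 6 markers of blood, endothelial and epithelial cells, 4 were at or under 3 counts in every library, Ptprc, Cdh5, Epcam and Krt18, and the list summed to between 7.65 and 10.6 CPM, nearly all of it Cd14, a monocyte marker, with 277 counts in control and between 169 and 212 in the other libraries.

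To see which members changed most, each was given as a log2 fold change between 2 libraries, and a change of at least 1 in size (2-fold) was counted. OB induction with control siRNA was the comparison with members past that size. Cdkn2b was higher in OB than in control by a log2 fold change of 1.04 (1 member, where 10.6% of all tested genes were higher by this measure), and Cdkn2c was lower, at −1.10 (1 member, with 7.1% of all tested genes lower). Ccnd1 was just short of the threshold, at −0.97. With TMM factors taken over all genes, an alternative chosen after seeing the data, Ccnd1 was past it (−1.02) and Cdkn2b was not (0.9995). For siDNMT1 against control, 0 of 9 members were past it in either direction (background 1.97% higher and 1.36% lower), and the same held for the library labelled siDNMT1_OB against OB (background 2.36% higher and 1.36% lower) and against siDNMT1 (background 6.83% higher and 2.71% lower). The median log2 fold change of the 9 members was −0.01 for siDNMT1 against control, 0.49 for the library labelled siDNMT1_OB against OB, 0.26 for OB against control and 0.34 for the library labelled siDNMT1_OB against siDNMT1. The medians of all tested genes lay between −0.001 and 0.013. The siRNA comparisons share no library with each other, nor do the induction comparisons, but each siRNA comparison shares 1 library with each induction comparison.

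**Figure D1:**
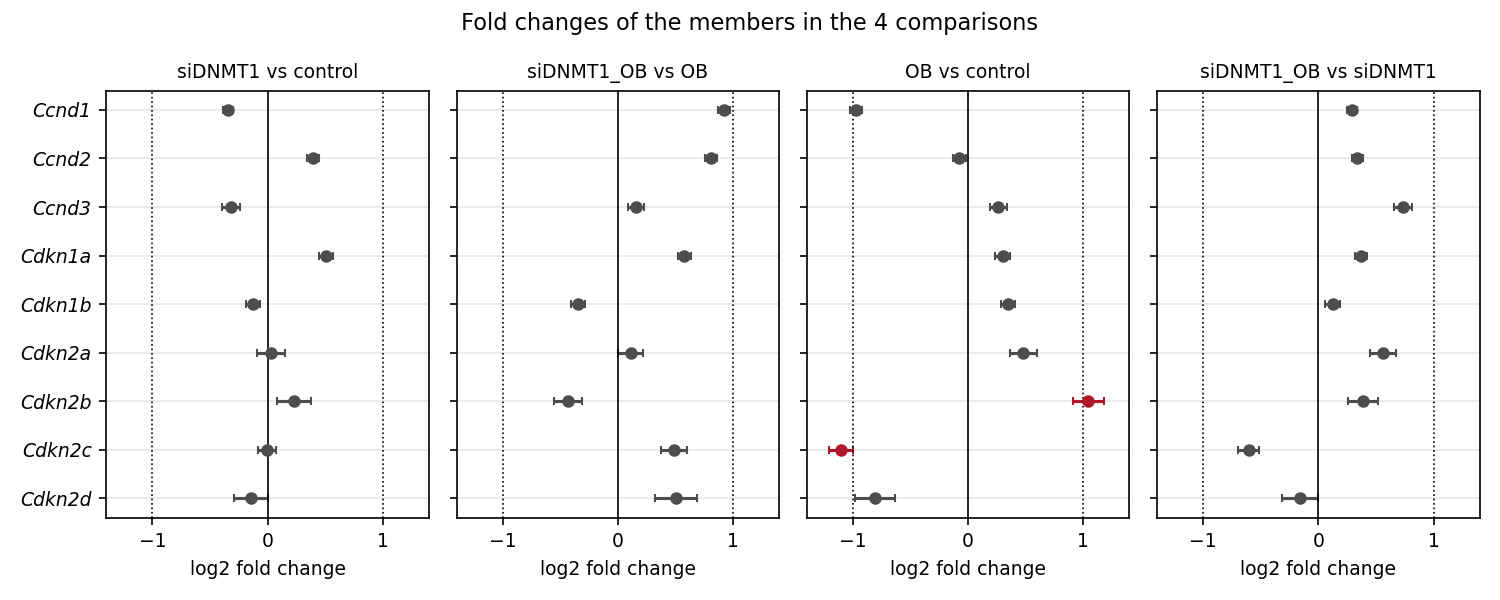
Log2 fold changes of the 9 tested members in the 4 comparisons, 1 library against 1, with exact 95% intervals that cover counting error only. Dotted lines mark a log2 fold change of 1 in size, and only Cdkn2b and Cdkn2c in OB against control (red) lie beyond them.

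An additive model over the 4 libraries (an siRNA term and an induction term, edgeR's quasi-likelihood test, Benjamini-Hochberg adjustment) was run as an alternative. It has 1 residual degree of freedom, so its error is the departure of the 4 libraries from additivity, pooled in part across genes. That error is not variation between replicates. For induction it called Cdkn2a higher (adjusted p = 0.043) and Cdkn2c lower (adjusted p = 0.0247), where it called 12.0% of all tested genes higher and 9.09% lower. Cdkn2b, the member past the threshold by size, had an adjusted p of 0.0558 in that edgeR fit. For the siRNA it called 0 members and 0.0% of all tested genes in either direction. At an unadjusted p under 0.05 the siRNA term of that edgeR fit held 602 genes higher and 546 lower, among them Ccnd2 and Cdkn1a, both higher. The siRNA term and the induction term both rest in part on the library labelled siDNMT1_OB, in which Dnmt1 was not below OB.

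The D-type cyclins were taken first. Ccnd1 (ENSMUSG00000070348; chr7:144929931-144939925, minus strand, GRCm38), the cyclin that growth factors induce in most mesenchymal cells, had 375 CPM in control and 296 in siDNMT1, with 191 in OB and 361 in the library labelled siDNMT1_OB. OB was thus the low library, and the library labelled siDNMT1_OB was close to control. The log2 fold change was −0.34 (−0.38 to −0.30) for siDNMT1 against control and 0.92 (0.87 to 0.97) for the library labelled siDNMT1_OB against OB, where 382 of the 13233 tested genes stood at or above it. OB against control gave −0.97 (−1.02 to −0.92), whereas the library labelled siDNMT1_OB against siDNMT1 gave 0.29 (0.24 to 0.33). Of the exon bases of Ccnd1, 1100 (23.4% of its length) overlap Oraov1 on the opposite strand, and the strand setting of the counting is not given in the sources used here. Oraov1 itself had 669, 631, 710 and 737 counts in control, siDNMT1, OB and the library labelled siDNMT1_OB, against between 4324 and 10167 for Ccnd1.

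Ccnd2 (ENSMUSG00000000184; chr6:127125162-127152193, minus strand), which serves the same kinases, had 197 CPM in control and 259 in siDNMT1, against 187 in OB and 327 in the library labelled siDNMT1_OB. siDNMT1 and the library labelled siDNMT1_OB, in which Dnmt1 was not below OB, lay above control and OB. The log2 fold change was 0.39 (0.34 to 0.45) for siDNMT1 against control and 0.81 (0.75 to 0.86) for the library labelled siDNMT1_OB against OB, with 514 tested genes at or above the latter. Induction moved it little with control siRNA (−0.08, −0.13 to −0.02) and to 0.34 (0.29 to 0.38) for the library labelled siDNMT1_OB against siDNMT1.

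Ccnd3 (ENSMUSG00000034165; chr17:47505051-47599691, plus strand), the D-type cyclin of many differentiated cells, had 109 CPM in control and 87.4 in siDNMT1, with 130 in OB and 145 in the library labelled siDNMT1_OB. Here both induced libraries lay above both uninduced ones. OB against control gave a log2 fold change of 0.26 (0.19 to 0.33), and the library labelled siDNMT1_OB against siDNMT1 gave 0.73 (0.66 to 0.81). The log2 fold change was −0.32 (−0.40 to −0.24) for siDNMT1 against control and 0.16 (0.09 to 0.23) for the library labelled siDNMT1_OB against OB. In bulk RNA, fewer cells that hold a transcript and less transcript per cell cannot be told apart, for these and all later values.

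**Figure D2:**
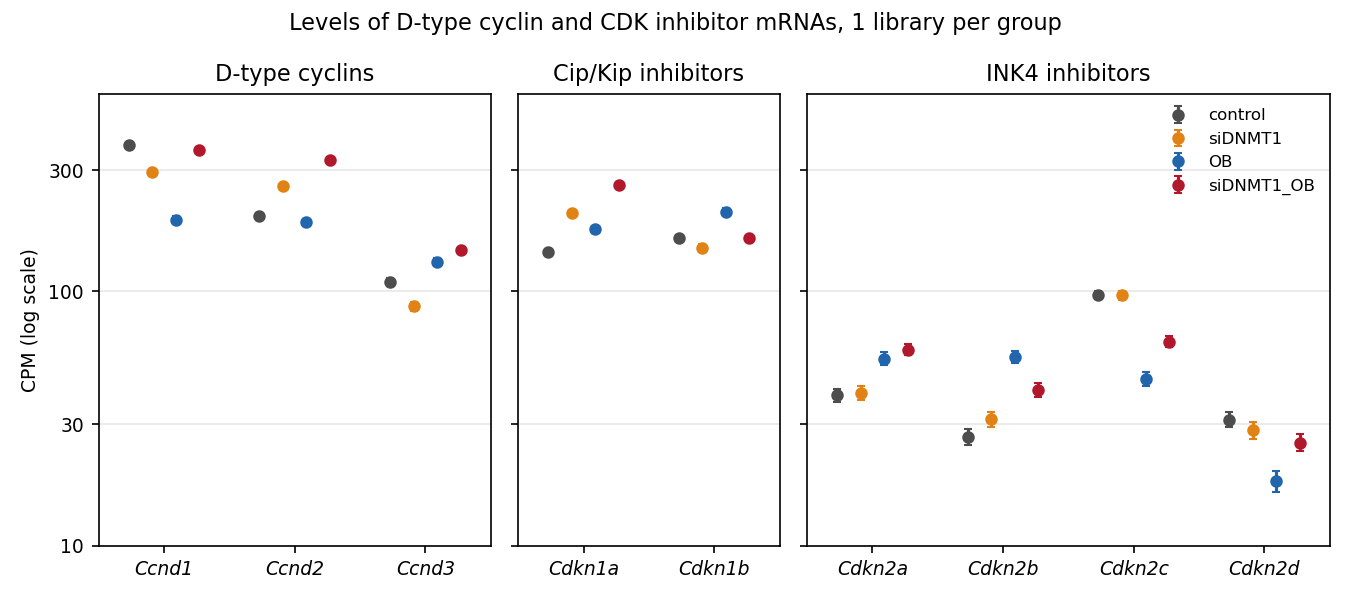
CPM (log axis) of the 9 detected members in the 4 libraries, 1 point per library, with exact 95% intervals that cover counting error only. Ccnd1 is lowest in OB at 191 CPM, Cdkn1a is highest in the library labelled siDNMT1_OB at 262, Cdkn2b is highest in OB at 55.3, and Cdkn2c is lowest there at 45.2.

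Among the Cip/Kip inhibitors, Cdkn1a (ENSMUSG00000023067; chr17:29090976-29100727, plus strand) encodes p21, the inhibitor that p53 induces. It had 143 CPM in control and 203 in siDNMT1, against 176 in OB and 262 in the library labelled siDNMT1_OB. It was higher in siDNMT1 than in control, and higher than OB in the library labelled siDNMT1_OB, in which Dnmt1 itself was not below OB. The log2 fold change was 0.51 (0.45 to 0.57) for siDNMT1 against control and 0.58 (0.52 to 0.63) for the library labelled siDNMT1_OB against OB. These effects differed by 0.07 (−0.01 to 0.15), an interval that includes 0. OB against control gave 0.30 (0.24 to 0.37), and the library labelled siDNMT1_OB against siDNMT1 gave 0.37 (0.32 to 0.42).

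Cdkn1b (ENSMUSG00000003031; chr6:134920401-134925513, plus strand) encodes p27, which accumulates in resting cells, largely through slower breakdown of the protein. It had 162 CPM in control and 149 in siDNMT1, with 206 in OB and 162 in the library labelled siDNMT1_OB, so that OB was the one library that stood above the rest. The log2 fold change was −0.13 (−0.19 to −0.06) for siDNMT1 against control, −0.35 (−0.41 to −0.29) for the library labelled siDNMT1_OB against OB and 0.34 (0.28 to 0.40) for OB against control. Its range over the 4 libraries, 0.47 on the log2 scale, was the smallest of the 9 members.

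Cdkn1c (ENSMUSG00000037664; chr7:143458339-143461050, minus strand) encodes p57 and is expressed from the maternal copy in an imprinted domain on chromosome 7. It had 0 counts in all 4 libraries, which at 3 counts allows up to 0.111 CPM in control and 0.117 in siDNMT1, against 0.133 in OB and 0.112 in the library labelled siDNMT1_OB. No fold change was computed. Gm44732, on the opposite strand, shares 625 exon bases with Cdkn1c (30.65% of the length of Cdkn1c) and had 0 counts in every library. Of 4 other genes of that domain, Kcnq1 and Phlda2 also had 0 counts in every library. Kcnq1ot1, the long noncoding RNA of the paternal copy, had 289, 375, 428 and 463 counts in control, siDNMT1, OB and the library labelled siDNMT1_OB, and Slc22a18 had 12, 14, 54 and 31.

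The promoter windows of these genes bear on the study's agent, since DNMT1 acts on CpG dinucleotides. RefSeq windows on GRCm38.p6, from 250 bases before to 50 bases after a transcript start, were found for 7 of the 10 members (11 windows). The members without one were Ccnd1, Ccnd2 and Cdkn1c. The 11 windows held a median of 22 CpG, against 7 over all 32851 windows (quartiles 3 to 20). Shown here are the windows of Cdkn1a, the inhibitor with the largest log2 fold change for siDNMT1 against control (0.51), and of Cdkn2b and Cdkn2c, the members past the 2-fold size, each 5′ to 3′ on the gene's own strand with every CpG in capitals. The upstream start of Cdkn1a (chr17:29090729-29091028, plus strand) had 2 CpG and its downstream start (chr17:29093519-29093818) had 23. Cdkn2b (chr4:89310983-89311282, minus strand) had 18. Cdkn2c had 33 at its upstream start (chr4:109666707-109667006, minus strand) and 8 at its downstream start (chr4:109665323-109665622). The RNA counts are per gene and do not tell the starts apart, and no methylation was measured in the files used here.
Cdkn1a upstream: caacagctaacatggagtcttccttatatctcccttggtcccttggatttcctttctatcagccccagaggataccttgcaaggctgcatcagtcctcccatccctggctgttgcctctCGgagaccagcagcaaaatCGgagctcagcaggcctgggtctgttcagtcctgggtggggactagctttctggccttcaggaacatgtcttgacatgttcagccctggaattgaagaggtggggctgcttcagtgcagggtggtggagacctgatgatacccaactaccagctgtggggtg
Cdkn1a downstream: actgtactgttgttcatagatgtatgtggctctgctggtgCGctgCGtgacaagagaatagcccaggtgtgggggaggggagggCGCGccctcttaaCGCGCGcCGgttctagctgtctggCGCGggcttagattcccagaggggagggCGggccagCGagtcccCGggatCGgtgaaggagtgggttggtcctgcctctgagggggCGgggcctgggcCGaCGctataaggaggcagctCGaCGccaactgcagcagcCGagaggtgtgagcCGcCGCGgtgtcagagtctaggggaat
Cdkn2b: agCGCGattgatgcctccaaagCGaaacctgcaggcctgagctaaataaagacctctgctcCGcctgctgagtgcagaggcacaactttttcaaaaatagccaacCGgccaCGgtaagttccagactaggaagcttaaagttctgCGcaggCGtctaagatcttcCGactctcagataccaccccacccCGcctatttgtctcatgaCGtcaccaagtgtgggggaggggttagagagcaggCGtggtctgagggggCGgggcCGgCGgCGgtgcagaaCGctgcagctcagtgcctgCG
Cdkn2c upstream: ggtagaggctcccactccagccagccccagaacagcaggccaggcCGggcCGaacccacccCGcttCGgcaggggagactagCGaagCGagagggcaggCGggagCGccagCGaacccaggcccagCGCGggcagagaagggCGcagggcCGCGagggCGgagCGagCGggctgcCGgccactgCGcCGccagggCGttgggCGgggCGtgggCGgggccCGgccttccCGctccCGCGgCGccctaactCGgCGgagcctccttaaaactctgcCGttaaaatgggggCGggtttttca
Cdkn2c downstream: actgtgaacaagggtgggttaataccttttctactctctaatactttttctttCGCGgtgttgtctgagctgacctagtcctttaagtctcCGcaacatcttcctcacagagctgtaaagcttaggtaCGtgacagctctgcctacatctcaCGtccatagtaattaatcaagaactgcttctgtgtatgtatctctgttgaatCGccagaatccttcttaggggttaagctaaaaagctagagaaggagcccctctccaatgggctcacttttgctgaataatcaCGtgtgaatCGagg

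The other members' windows had 15 and 28 CpG (Ccnd3), 30 (Cdkn1b), 45 and 12 (upstream and downstream start of Cdkn2a) and 22 (Cdkn2d). The GC box GGGCGG was present on either strand in 9 of the 11 windows and in 35.7% of all windows, and TATAAA in 0 of 11 and 13.6%. An E2F motif (TTTCCCGC, TTTCGCGC, TTTGCCGC or TTTGGCGC on either strand) was found in 1 of the 11 windows and in 2.27% of all windows. It lay at the upstream start of Cdkn2a (chr4:89294570-89294869, minus strand), the start of the p19Arf transcript, with its first base at position −99 from the start. This window is shown with the motif in capitals, and a match describes the letters only.
Cdkn2a upstream: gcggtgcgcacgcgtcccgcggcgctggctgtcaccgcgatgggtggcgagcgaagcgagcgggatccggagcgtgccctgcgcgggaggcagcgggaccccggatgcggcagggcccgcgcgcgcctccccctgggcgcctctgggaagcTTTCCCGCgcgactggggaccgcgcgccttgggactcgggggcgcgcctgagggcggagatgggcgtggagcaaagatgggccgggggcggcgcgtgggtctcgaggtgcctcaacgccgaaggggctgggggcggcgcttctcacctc

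The INK4 inhibitors split into members that were higher and members that were lower in the induced libraries. Cdkn2a (ENSMUSG00000044303; chr4:89274471-89294653, minus strand) gives rise to p16Ink4a and, from another first exon, to p19Arf, which stabilises p53, and its counts pool the transcripts of both. It had 39.0 CPM in control and 39.9 in siDNMT1, with 54.4 in OB and 58.9 in the library labelled siDNMT1_OB. The induced libraries stood above the uninduced ones, and the siRNA pairs were close. The log2 fold change was 0.48 (0.36 to 0.60) for OB against control and 0.56 (0.45 to 0.68) for the library labelled siDNMT1_OB against siDNMT1. It was 0.03 (−0.10 to 0.16) for siDNMT1 against control and 0.11 (0.00 to 0.22) for the library labelled siDNMT1_OB against OB.

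Cdkn2b (ENSMUSG00000073802; chr4:89306299-89311039, minus strand), next to Cdkn2a, encodes p15, which TGF-β induces. It had 26.8 CPM in control and 31.4 in siDNMT1, against 55.3 in OB and 41.0 in the library labelled siDNMT1_OB. OB was the highest library and control the lowest. OB against control gave a log2 fold change of 1.04 (0.91 to 1.18), 2.06-fold, so the interval reaches below the threshold, and 1326 tested genes stood at or above it. The library labelled siDNMT1_OB against siDNMT1 gave 0.38 (0.25 to 0.52). The value was 0.23 (0.08 to 0.37) for siDNMT1 against control and −0.43 (−0.55 to −0.31) for the library labelled siDNMT1_OB against OB.

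Cdkn2c (ENSMUSG00000028551; chr4:109660876-109667189, minus strand) encodes p18, which binds CDK6 and CDK4. It had 97.0 CPM in control and 96.5 in siDNMT1, with 45.2 in OB and 63.4 in the library labelled siDNMT1_OB. Both uninduced libraries were high and OB was lowest. OB against control gave a log2 fold change of −1.10 (−1.21 to −0.997), with 809 tested genes at or below it, and the library labelled siDNMT1_OB against siDNMT1 gave −0.61 (−0.70 to −0.52). For siDNMT1 against control it was −0.01 (−0.09 to 0.07), a value whose sign changed with the scaling. For the library labelled siDNMT1_OB against OB it was 0.49 (0.38 to 0.60).

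Cdkn2d (ENSMUSG00000096472; chr9:21288410-21291407, minus strand) encodes p19Ink4d, whose mRNA varies along the cell cycle. It had 31.3 CPM in control and 28.4 in siDNMT1, against 17.9 in OB and 25.4 in the library labelled siDNMT1_OB. OB was the lowest library here too. OB against control gave a log2 fold change of −0.80 (−0.98 to −0.63), and the library labelled siDNMT1_OB against OB gave 0.50 (0.33 to 0.69). For siDNMT1 against control the value was −0.14 (−0.29 to 0.00), and for the library labelled siDNMT1_OB against siDNMT1 it was −0.16 (−0.31 to −0.01).

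To compare siDNMT1 against control with the library labelled siDNMT1_OB against OB, the log2 fold change of the uninduced pair was subtracted from that of the induced pair, member by member. In the direction of the labels, the difference was largest for Ccnd1, at 1.26 (1.19 to 1.33). It was the 1 member of 9 at or above 1, where 3.27% of all tested genes lay at or above 1, and 207 tested genes reached the value of Ccnd1. At or below −1 there were 0 members and 2.95% of all tested genes. As labelled, Ccnd1, Ccnd3 and Cdkn2b changed sign between the states with both intervals away from 0. Ccnd1 and Ccnd3 were lower in siDNMT1 than in control and higher than OB in the library labelled siDNMT1_OB, with a difference of 0.47 (0.37 to 0.58) for Ccnd3. Cdkn2b did the opposite, with a difference of −0.66 (−0.84 to −0.47). The other differences were 0.65 (0.42 to 0.87) for Cdkn2d, 0.49 (0.36 to 0.63) for Cdkn2c, 0.41 (0.34 to 0.49) for Ccnd2, 0.08 (−0.08 to 0.25) for Cdkn2a and −0.22 (−0.31 to −0.13) for Cdkn1b. The median over the 9 members was 0.41, and over all tested genes 0.004. These intervals are symmetric around each difference and rest on Poisson counting error. All of the differences depend on the library labelled siDNMT1_OB. With the direction of that library against OB turned, Ccnd2 (0.39 and 0.81 as labelled) would hold the largest difference in size, in place of Ccnd1. Ccnd1, Ccnd3 and Cdkn2b would then keep their sign, and Ccnd2, Cdkn1a and Cdkn1b would change it. Dnmt1 itself would not show a depletion like that of the uninduced pair in the turned direction either.

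**Figure D3:**
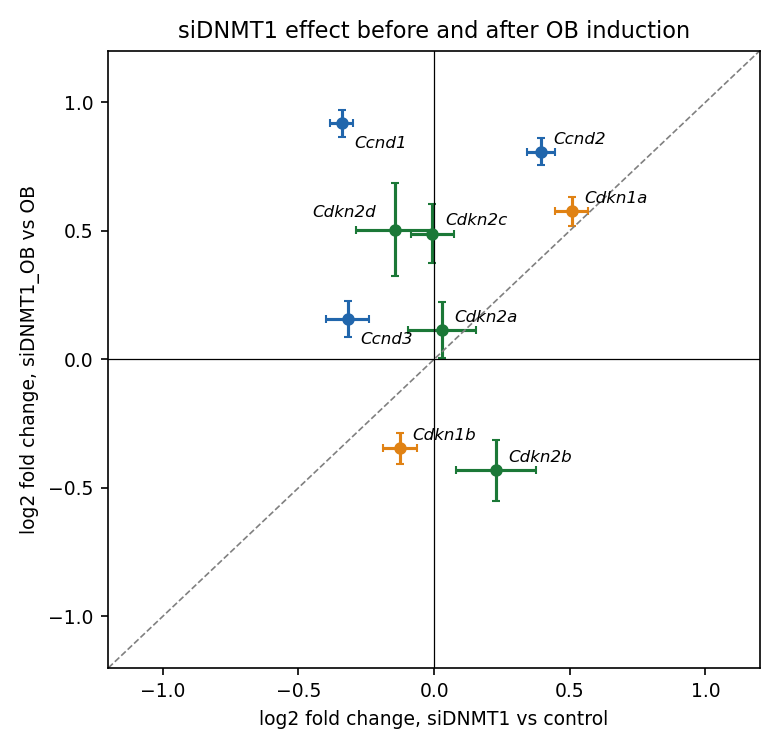
Log2 fold change of each member for siDNMT1 against control (horizontal) and for the library labelled siDNMT1_OB against OB (vertical), with 95% counting intervals. D-type cyclins are blue, Cip/Kip inhibitors orange and INK4 inhibitors green, and the dashed line marks equal effects. Cdkn1a and Cdkn2a lie on the line within their intervals, and Ccnd1 lies 1.26 above it.

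To set the members against each other, levels were computed per length, as counts per kilobase of the gene's exons scaled to the same sum over all genes in every library. On this scale Ccnd1 led the D-type cyclins in every library, at 228 in control and 189 in siDNMT1, with 126 in OB and 236 in the library labelled siDNMT1_OB. It made up 70.5%, 62.6%, 53.9% and 59.9% of the summed D-type cyclin level in the same order. Ccnd1 was thus a smaller part of the cyclin pool in OB than in control, with Ccnd2 at 18.5% in control and 26.4% in OB and Ccnd3 at 11.0% and 19.7%. The ratio of Ccnd1 to Ccnd2 was 3.80 in control and between 2.04 and 2.28 in the other 3 libraries.

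The INK4 pool was taken next. Its summed level per length was 312 in control and 333 in siDNMT1, against 354 in OB and 367 in the library labelled siDNMT1_OB. Without the length correction the order of control and OB was turned, with summed levels of 194 CPM in control and 173 in OB. Per length, in control Cdkn2c was the largest share, 33.2%, followed by Cdkn2a at 30.7%, Cdkn2d at 18.3% and Cdkn2b at 17.8%. In OB Cdkn2a held 40.6% and Cdkn2b 34.8%, and Cdkn2c held 14.7%. The ratio of Cdkn2b to Cdkn2c was 0.534 in control and 0.628 in siDNMT1, with 2.37 in OB and 1.25 in the library labelled siDNMT1_OB, so on this scale the order of these 2 members was exchanged in both induced libraries. Without the length correction it was exchanged in OB alone. Within the Cip/Kip pool, Cdkn1a and Cdkn1b were near each other per length in control and OB (ratios of 1.13 and 1.09). Cdkn1a was the higher in siDNMT1 and the library labelled siDNMT1_OB (1.74 and 2.07). Without the length correction Cdkn1a was below Cdkn1b in control (142.5 against 162.3 CPM) and in OB (175.5 against 205.9).

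Summed over the 3 groups, the D-type cyclins were below the inhibitors in every library on this scale. Without the length correction they were above them in every library but OB. Their level per length was 324 in control and 302 in siDNMT1, against 233 in OB and 393 in the library labelled siDNMT1_OB, and that of the Cip/Kip inhibitors was 217, 270, 293 and 335. The ratio of D-type cyclins to all inhibitors was 0.613 in control and 0.501 in siDNMT1, with 0.360 in OB and 0.560 in the library labelled siDNMT1_OB. OB had the lowest ratio. Their kinase partners, named here outside the rule for named genes and after their values were seen, stood far apart in level per length, with Cdk4 between 398 and 500 and Cdk6 between 5.07 and 9.01.

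**Figure D4:**
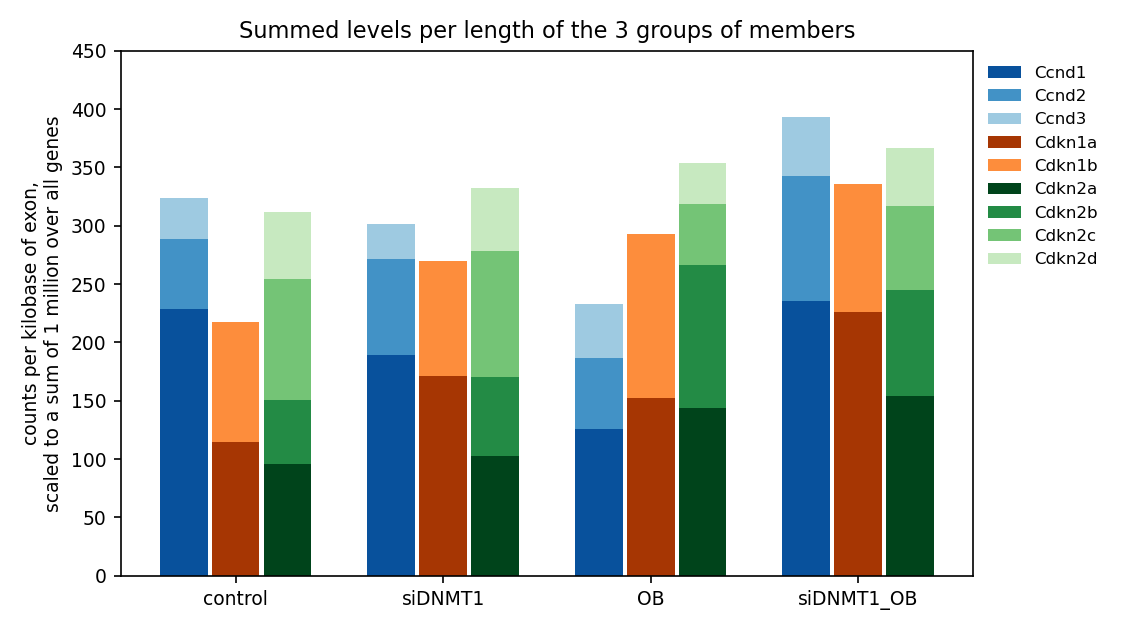
Summed level per length (counts per kilobase of exon, scaled to the same sum over all genes in every library) of the D-type cyclins (blue), Cip/Kip inhibitors (orange) and INK4 inhibitors (green) in each library, stacked by member. The D-type cyclin bar is lowest in OB, at 233, and the INK4 bar keeps between 312 and 367 while, on this scale, Cdkn2b and Cdkn2c trade places within it.

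The rest of the pathway was read from lists of 61 genes. OB induction with control siRNA went with lower levels of its S-phase and mitotic part, in a comparison where 7.1% of all tested genes were past the 2-fold size and lower. All 5 of the E, A and B cyclins were past the 2-fold size and lower in OB than in control (median −2.06), led by Ccna2 at −2.26 and Ccnb1 at −2.18, the cyclins of S phase and mitosis. Of 13 pocket proteins and E2F factors 5 were lower (median −0.72), led by E2f2 (−3.27), E2f8 (−2.59) and E2f7 (−2.38). Of 7 kinases and their activators 1 was lower, the mitotic kinase Cdk1 (−2.01), a count near that background. The 4 proliferation markers Mki67, Pcna, Mcm2 and Top2a were lower too (median −2.20), with a summed level of 1493 CPM in control and 1376 in siDNMT1, against 317 in OB and 610 in the library labelled siDNMT1_OB. Ccnd1, Cdkn2c and Cdkn2d were lowest, in CPM and per length, in the same library in which these markers were lowest, and the part of proliferation in their values was not tested.

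For the library labelled siDNMT1_OB against OB, 2 of the 5 E, A and B cyclins were past the 2-fold size and higher (median 0.99, background 2.36%), namely Ccnb1 (1.11) and Ccne2 (1.06). So were 3 of the 13 pocket proteins and E2F factors, E2f2 (1.49, 0.77 to 2.49), E2f8 (1.43) and E2f7 (1.17), and 1 of the 4 proliferation markers, Mki67 (1.16). For siDNMT1 against control none of the 6 pathway lists held a gene past that size in either direction (background 1.97% higher and 1.36% lower), and their medians lay between −0.25 and 0.10. For the library labelled siDNMT1_OB against OB the proliferation markers had a median of 0.89, beside 0.92 for Ccnd1, 0.81 for Ccnd2 and 0.16 for Ccnd3. The markers' median for siDNMT1 against control was −0.25, beside −0.34, 0.39 and −0.32 for the same cyclins.

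Genes that act on the members themselves were read from 2 further lists. Of 16 genes for the turnover of D-type cyclins and Cip/Kip proteins, 4 were past the 2-fold size and lower in OB than in control, led by Cdc20 (−2.27), Dtl (−1.69) and Cks1b (−1.42), the last a cofactor in the breakdown of p27, with a background of 7.1% lower, and the list's median was −0.13. For the library labelled siDNMT1_OB against OB, 0 of 16 were past it, with a median of 0.04 and a background of 2.36% higher and 1.36% lower. Of 16 upstream regulators, Tcf7l2, a factor of the Wnt pathway, was higher in OB than in control (1.38) and Ezh2 (−1.24) and Myc (−1.11) were lower, with a median of −0.16. These counts, 1 higher and 2 lower of 16, are near the backgrounds of 10.6% and 7.1%. Ezh2 is a Polycomb enzyme known to act at the Ink4 locus. In siDNMT1 against control and in the library labelled siDNMT1_OB against OB, 0 of the 16 were past the 2-fold size, with medians of 0.10 and 0.12. With so few genes a count of 0 is near these backgrounds and is no result about the lists.

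**Figure D5:**
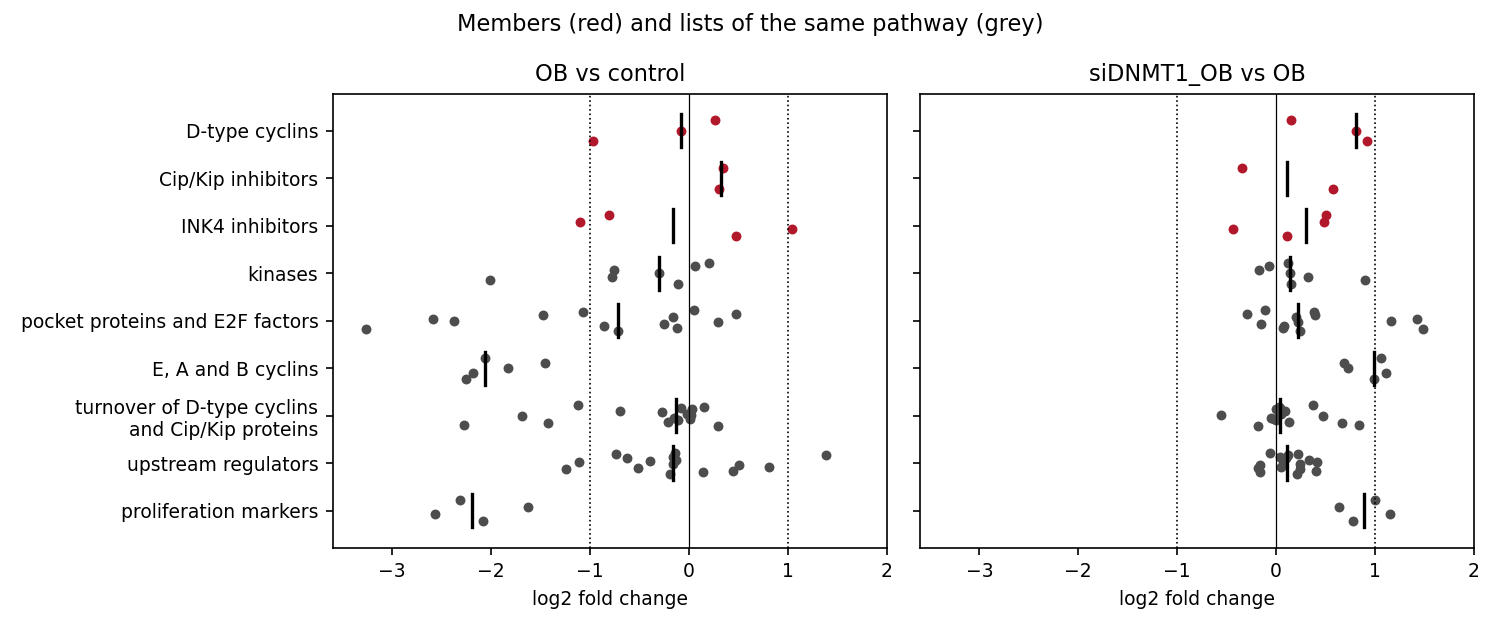
Log2 fold change of every tested gene of the members' 3 groups (red) and of 6 lists of the same pathway (grey), for OB against control and for the library labelled siDNMT1_OB against OB. Black bars are medians and dotted lines mark 1 in size. The E, A and B cyclins have medians of −2.06 and 0.99, and the D-type cyclins of −0.08 and 0.81.

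At the Ink4 locus on chromosome 4, the neighbour Mtap had 345 CPM in control and 198 in siDNMT1, with 382 in OB and 254 in the library labelled siDNMT1_OB, a log2 fold change of −0.80 (−0.85 to −0.75) for siDNMT1 against control and −0.59 (−0.63 to −0.54) for the library labelled siDNMT1_OB against OB. Mtap, an enzyme of methionine salvage, was thus lower in siDNMT1 than in control, which neither Cdkn2a nor Cdkn2b was, and below OB in the library labelled siDNMT1_OB, in which Dnmt1 was not below OB. The other neighbour, Dmrta1, had 0 counts in every library. The members with the widest range, Cdkn2c and Cdkn2b, were also compared with 11676 tested protein-coding genes by the distance between log2 CPM profiles over the 4 libraries, each centred on its mean. The nearest to Cdkn2c were Ubqln4 (distance 0.00398), Alyref (0.0419) and Shmt1 (0.0505), and the nearest to Cdkn2b were Azin2 (0.0447), Serhl (0.0483) and Phkb (0.0676). With 4 points per profile such likeness is common, and 367 and 394 genes lay within a distance of 0.3 of Cdkn2c and Cdkn2b.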

How the data were processed

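Poly(A) RNA of 4 C3H10T1/2 groups was sequenced from both ends. The authors deposited raw read counts per gene, made with Trimmomatic, HISAT2 and featureCounts on mm10 per the submitters' processing notes. Versions, use of strand and treatment of reads with several positions are not given in the sources used here. All 10 members had their GENCODE M21 (GRCm38) position in the table. TMM factors (0.991 to 1.01) came from the 13233 genes whose mean reached 1 CPM (edgeR 4.0.16, R 4.3.3). Log2 fold changes used a prior count of 2, and 3 counts served as floor. Total count, upper quartile and DESeq2 1.42.0 scaling, other filters and prior counts of 0.5 and 5 were alternatives. The computation of fold changes and intervals was run on simulated Poisson counts scaled by total counts. These held no variation between libraries, so the run checks the computation only and not the spread of real libraries. The rule for named genes took all members, Dnmt1, at most the 3 genes furthest from 0 of a list and comparison, and the 3 nearest profiles of 2 members. Cell type markers (Pdgfra and Ly6a among them, chosen after their values were seen) and the members' neighbours came from their own lists. Cdk4, Cdk6, Pcna and genes that overlap members were named outside the rule, after their values were seen. Members and lists were chosen with earlier results of these data known. Exact intervals cover counting error only, as each group held 1 library. Reads carried no molecular identifiers, so copies of 1 molecule could be counted as separate reads, and the intervals may be too narrow even for counting error.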

Additional observations from a re-analysis of the deposited data

Results flagged for a closer look

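Members are given here whose values had opposite signs in 2 comparisons of the same kind, with both counting intervals away from 0. Ccnd1 stood at −0.34 for siDNMT1 against control and at 0.92 for the library labelled siDNMT1_OB against OB, which differ by 1.26 on the log2 scale. Ccnd1 also stood at −0.97 for OB against control and at 0.29 for the library labelled siDNMT1_OB against siDNMT1. These values are 1.26 apart by construction, since they come from the same counts, and are no further observation. Ccnd2 stood at −0.08 for OB against control and at 0.34 for the library labelled siDNMT1_OB against siDNMT1, 0.41 apart. Ccnd3 stood at −0.32 for siDNMT1 against control and at 0.16 for the library labelled siDNMT1_OB against OB, 0.47 apart. Cdkn2b stood at 0.23 and −0.43 in the same pair of comparisons, a difference of −0.66. With 1 library per group none of these differences was tested, and each rests on the library labelled siDNMT1_OB, in which Dnmt1 was not below its level in OB. With the direction of that library against OB turned, Ccnd1, Ccnd3 and Cdkn2b would not have opposite signs in the siRNA comparisons. Dnmt1 itself would not show a depletion like that of the uninduced pair in the turned direction either.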

How the results depend on the processing

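Replicates could not be matched or left out, because each group held 1 library. The additive edgeR fit crosses siRNA and induction in place of replicates. Under 6 alternatives for scaling and prior count, the 45 fold changes and differences of the members stayed within their counting intervals, and the largest move was 0.049. A change of scaling shifts all members of a comparison by nearly the same amount, so these are not 45 separate checks. The sign changed for 1 value, Cdkn2c in siDNMT1 against control (−0.01, and 0.02 with upper quartile scaling). With TMM factors over all genes, chosen after seeing the data, OB against control had 0 members higher and 2 lower past the 2-fold size, since Cdkn2b stood at 0.9995 and Ccnd1 at −1.02. Of 84 counts of members under alternatives, the other 82 stayed within 1.5 times. Most of these could hardly move. Every tested member passed each filter, so filters left their fold changes as they were. In the comparisons other than OB against control, no member was counted under any setting. The additive edgeR fit gave the same counts for induction but called Cdkn2a in place of Cdkn2b. Without the length correction the D-type cyclins held 57.7% of the members' counts in control and 54.0% in siDNMT1, against 47.9% in OB and 57.7% in the library labelled siDNMT1_OB, against 38.0%, 33.4%, 26.5% and 35.9% per length, so that they exceeded the inhibitors by counts in every library but OB.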

Other observations

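The predicted gene AC167363.2 shares 273 exon bases with Cdkn1a on the opposite strand (7.68% of the length of Cdkn1a). It had 43 counts in control and 65 in siDNMT1, with 55 in OB and 109 in the library labelled siDNMT1_OB, in the same order of libraries as Cdkn1a with 3865, 5188, 3970 and 7005. Without stated strand use, reads from the shared bases cannot be told apart between the 2 genes. Bysl, which shares 361 exon bases with Ccnd3 (4.11% of its length), had 847, 694, 499 and 791 counts in the same libraries, and its lowest library was OB, where Ccnd3 had 2950.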
